A study of Mus musculus with 2 samples.

Results

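The respiratory chain genes were taken as every row of the deposited table whose mouse symbol begins as a subunit of complexes I to V does. These are the Nduf, Sdh, Uqcr, Cox and Atp5 families of the nucleus and the mt-Nd, mt-Co, mt-Cytb and mt-Atp genes of the mitochondrial chromosome. The rule gave 94 of the 12432 genes in the table, 81 nuclear and 13 mitochondrially encoded, and it used names alone and no measured value. By complex, the nuclear genes numbered 39 for I, 4 for II, 9 for III, 11 for IV and 18 for V, and the mitochondrial genes 7 for I, 1 for III, 3 for IV and 2 for V. Of these 94, 89 were detected in at least 10% of cells and could be tested, 76 nuclear and all 13 mitochondrial. The 5 below that share were Ndufa11b, Ndufs6b, Uqcrh-ps1, Atp5l-ps1 and Atp5l2-ps. Of these, Uqcrh-ps1 has the symbol of a pseudogene, and the others are annotated as processed pseudogenes. Ndufb4c, among the tested members, is also so annotated. All of them stay in the counts of nuclear members. Cox4i2, Cox6a2, Cox6b2, Cox7a1, Cox7b2, Cox8b, Cox8c and Ndufa4l2, isoforms known from muscle and other tissues, were not analysed here.

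The cells were single CD4 T cells that recognise the peptide 2W1S. They came from C57BL/6 mice after colonization with a recombinant Candida albicans that makes the peptide (Ca-2W1S), were sorted from spleen and peripheral lymph nodes, and were sequenced with SMART-Seq v4 chemistry on a Fluidigm C1 instrument. All 178 cells carried this 1 treatment, with no uncolonized or otherwise treated control group among the samples used here, and the labels do not give the number or age of the mice. There were 2 captures, March with 82 cells in runs Mar1 (25 cells) and Mar17 (57 cells), and April with 96 cells in runs Apr13 and Apr21 (48 cells each). The comparisons below are therefore between classes of cells within a capture: with and without the transcript of Klf2, the transcription factor of T cell quiescence named in the title of the series, and with and without that of Stmn1, a microtubule regulator abundant in dividing cells.

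The respiratory chain carries electrons from NADH and succinate to oxygen through complexes I to IV and uses the energy to pump protons across the inner mitochondrial membrane, and complex V, the ATP synthase, lets them back to make ATP. Complex II is encoded entirely in the nucleus, while the other complexes are built from subunits of both genomes. Resting T cells rely on this pathway, and T cells that are activated to divide enlarge their mitochondria while they also raise glycolysis.

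The deposited values are on a log2 scale. A linear value here is 2 to the power of the deposited value, less 1, and it summed to between 892206 and 979888 per cell. Low values of a gene scaled inversely with transcript length across 10607 genes (slope of log2 on log2 -0.77), so the linear value was read as per length, like TPM. A median of 5068.5 genes was detected per cell (range 2927 to 6990), with detected meaning any value above 0. Of the CD4 T cell markers, 9 of 9 were in the table and their summed linear value averaged at least 12615 in each of the Klf2 classes and of the Stmn1-high and Stmn1-low classes, against 53.5 or less for the 2 CD8 markers, 42.4 or less for 2 of 6 B cell markers, 10.3 or less for 2 of 8 myeloid markers, 64.0 or less for 1 of 3 plasma cell markers, 71.6 or less for 1 of 3 NK cell markers and 3.43 or less for 1 of 3 platelet markers. The 4 erythroid markers were not analysed here. The part of these other cell types in the results was not tested. The number of reads behind a value is unknown, and the tests rest on 2 captures, whose spread may be technical.

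Most transcripts of the mitochondrial genome lay above every nuclear member. The highest median linear value over all cells was that of mt-Co3 (16520), a core subunit of cytochrome c oxidase, followed by mt-Atp6 (15670), the ATP synthase subunit of the proton channel. Then came mt-Co2 (9905), mt-Co1 (9054), mt-Atp8 (6454), mt-Cytb (6152) and mt-Nd1 (5243). The other complex I genes lay lower, at 1429 for mt-Nd4, 891 for mt-Nd3, 772 for mt-Nd2, 647 for mt-Nd6, 424 for mt-Nd5 and 279 for mt-Nd4l. Nearby genes in this order overlapped over cells: the middle range (25th to 75th percentile) was 11544 to 21989 for mt-Co3, 11405 to 20902 for mt-Atp6 and 6709 to 14290 for mt-Co2. Of the 13 genes, 9 were detected in every cell, and mt-Nd4l, in 85.4% of cells, was the least often detected.

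Most nuclear members were lower, although Cox6a1 lay above mt-Nd5 and mt-Nd4l, and Ndufa3 and Cox4i1 above mt-Nd4l. Their median over genes of the median linear value was 2.68, and 19 of 81 had a median of 0, the pseudogenes named above among them. Complex IV genes (median of medians 21.1) and complex V genes (16.4) lay above those of complex III (2.68), II (0.930) and I (0.662). The highest in each complex were Ndufa3 (415.7) for I, Sdha (1.5), the flavoprotein of succinate dehydrogenase, for II, Uqcrh (161.2), the hinge protein, for III, Cox6a1 (526.7) for IV and Atp5l (178.4) for V. Among core subunits of complex I, Ndufs7 had 11.5, Ndufs1 1.58, Ndufs3 1.14, Ndufv2 0.662, Ndufv1 0.358 and Ndufs8 0. Among the complex IV isoforms known from most tissues, Cox4i1 had a median of 382.2, Cox6b1 45.4, Cox7b 21.1, Cox8a 10.7 and Cox7a2 2.21, and Cox7a2l, a factor of supercomplex assembly, 3.52. Ndufa4, named for complex I and counted there by the rule although it is known as a subunit of complex IV, had 8.11. Of the 3 genes for the same c-ring subunit of ATP synthase, Atp5g3 (9.78) and Atp5g1 (7.59) lay above Atp5g2 (0, detected in 14.6% of cells).

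**Figure D1:**
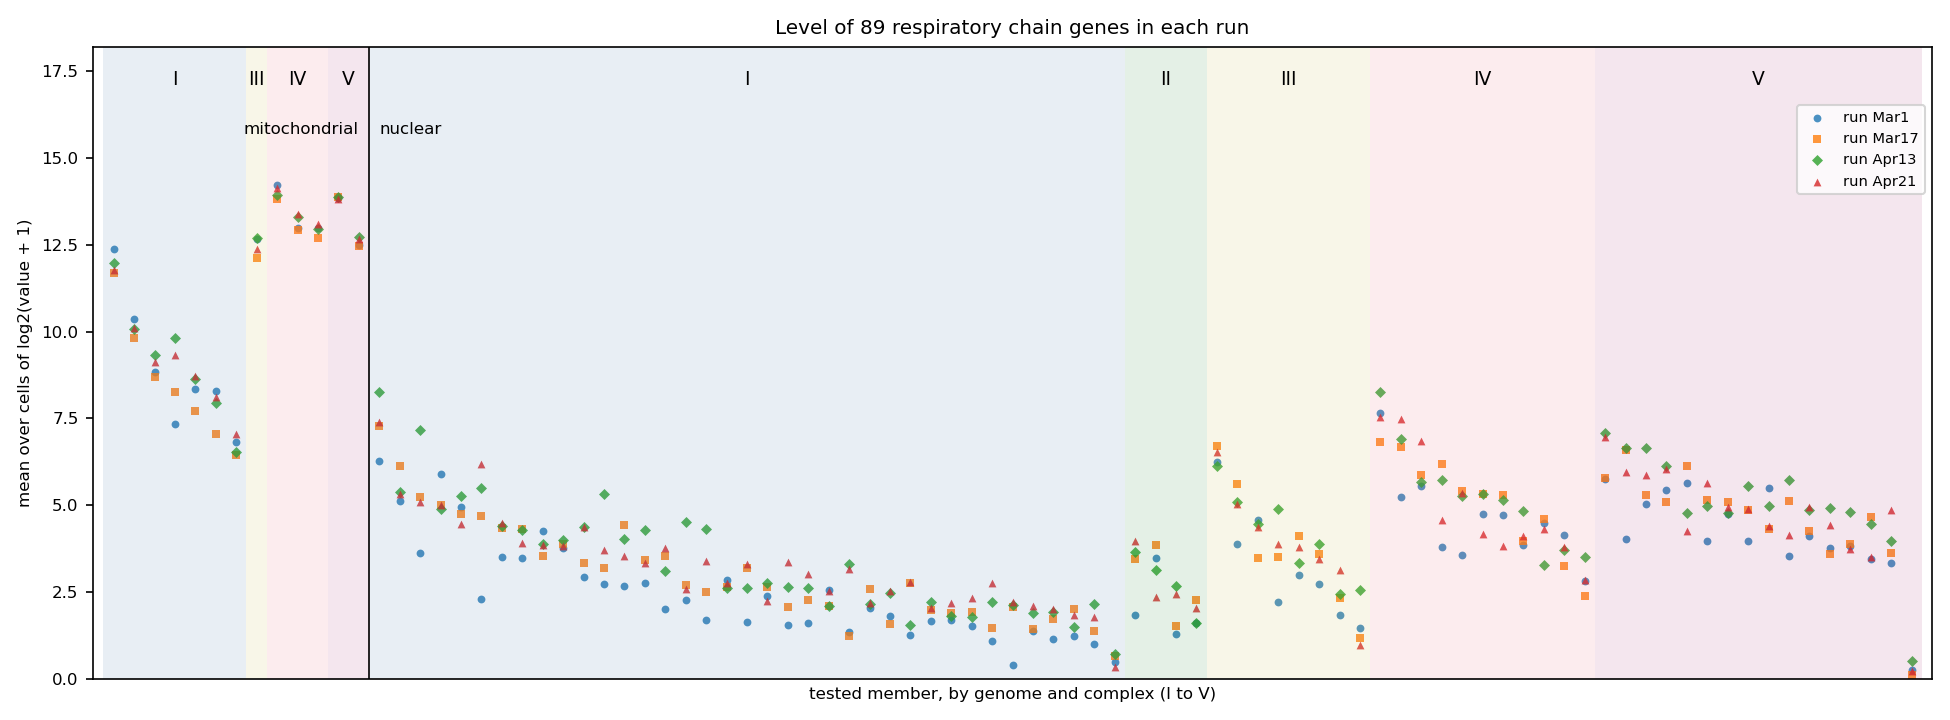
Mean over cells of log2(linear value + 1) for each of the 89 tested respiratory chain genes, 1 symbol per run, with genes side by side by genome and complex. The 13 mitochondrial genes lie at the left above nearly all nuclear genes, and run Mar1 has the lowest mean in 51 of 76 nuclear genes.

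The means of the 4 runs lay further apart for nuclear than for mitochondrial members. The range of the 4 run means of log2 values had a median of 0.58 over the mitochondrial members and 1.30 over the nuclear members, against 0.61 over the 10706 other tested genes. Nuclear members were detected in a median of 64.6% of cells and mitochondrial members in 100%. The other genes were not matched for level or detection, and the part of the sampling of cells in these ranges was not tested. mt-Atp6 had the narrowest range, 0.05, with run means of 13.85, 13.89, 13.88 and 13.83 in Mar1, Mar17, Apr13 and Apr21. Without the 3 cells described next, the narrowest range of a mitochondrial member was 0.28. The widest was that of mt-Nd3, with 7.35, 8.27, 9.82 and 9.33 in those runs, lower in both March runs than in both April runs. Among nuclear genes Ndufa13, a complex I subunit, ranged most, from 2.31 in Mar1 through 4.68 and 5.48 to 6.19 in Apr21. Mar1 was the lowest run for 51 of 76 nuclear members (67.1%), against 42.8% of the other tested genes, and without those 3 cells for 39 of 76 (51.3%), against 38.6%. The median number of genes detected was also lowest in Mar1, at 4859, against 5491 in Mar17, 4973 in Apr13 and 4921.5 in Apr21, and its part in these differences was not tested.

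Of the linear signal of a cell, the median share was 8.06% for mitochondrial and 2.24% for nuclear members, and the median ratio of the first to the second within a cell was 3.66. The mitochondrial share had a median of 7.62% in Mar1, 7.20% in Mar17, 8.22% in Apr13 and 8.99% in Apr21, and the nuclear share 2.07%, 2.18%, 2.46% and 2.24%. In every run the cells spread more than the run medians did, with a middle range of 6.12% to 9.64% for the mitochondrial share in Mar1 and of 7.10% to 10.7% in Apr21. Within the mitochondrial signal complex IV held a median of 47.1%, complex V 28.3%, complex I 15.3% and complex III 8.04%. Within the nuclear signal the order was another, with 34.6% for complex I, 26.1% for V, 22.2% for IV, 10.4% for III and 0.872% for II.

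**Figure D2:**
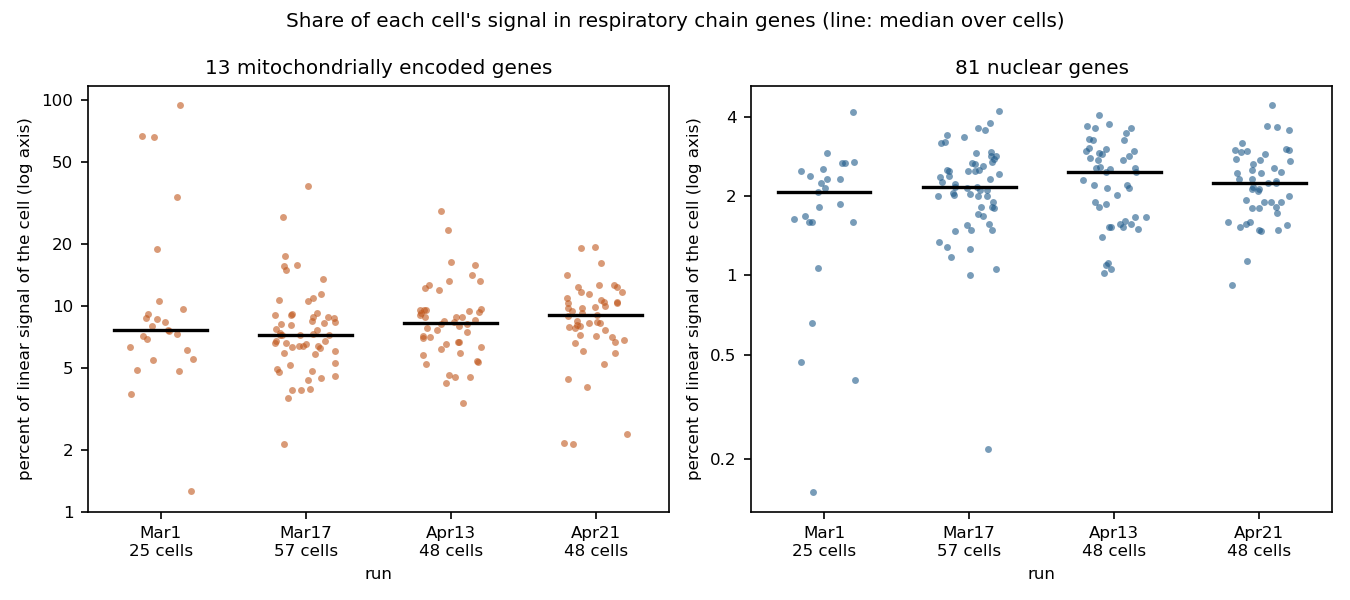
Percent of the linear signal of each cell in the 13 mitochondrially encoded genes (left) and the 81 nuclear genes (right), 1 point per cell, by run, on log axes with the median as a line. Medians lie between 7.20% and 8.99% on the left and between 2.07% and 2.46% on the right, and 3 Mar1 cells exceed 60% on the left.

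Of the 178 cells, 3 stood apart, all in run Mar1. Mitochondrial members took 65.8%, 66.3% and 93.9% of their signal, while the next highest cell had 38.2%, and nuclear members 0.399%, 0.658% and 0.150%. With the mitochondrial signal removed from the total, the nuclear share in these cells was 1.17%, 1.95% and 2.46%, against a median of 2.46% over all cells. They had 3837, 3574 and 2927 genes detected. Klf2 was at 0 in all 3, which placed them in the Klf2-negative class.

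Sequence overlap and near-identical copies bear on what a value of a single gene means. Below are the 3 places where mitochondrial genes share more than 1 base (GENCODE vM21, GRCm38, plus strand, chrM:7907-7989, chrM:10147-10193 and chrM:13532-13585), shown because the 3 gene pairs that meet there were also the 3 most closely correlated pairs. Capitals mark the bases that belong to both genes.
mt-Atp8 and mt-Atp6: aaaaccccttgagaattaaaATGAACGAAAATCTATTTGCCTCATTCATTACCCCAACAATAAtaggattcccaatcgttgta
mt-Nd4l and mt-Nd4: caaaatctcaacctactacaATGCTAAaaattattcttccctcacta
mt-Nd5 and mt-Nd6: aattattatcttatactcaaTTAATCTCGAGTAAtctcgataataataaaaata

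All 3 are read 5′ to 3′ on the plus strand. The first pair shares 43 bases, the second 7 and the third 14, the last on opposite strands, since mt-Nd6 is encoded on the minus strand. Spearman rho over cells, taken within each run and averaged over the 4 runs, was 0.94 for mt-Atp8 with mt-Atp6, 0.76 for mt-Nd5 with mt-Nd6 and 0.62 for mt-Nd4l with mt-Nd4. The other 75 pairs of mitochondrial genes lay between 0.02 and 0.57 with a median of 0.25, and the 9 pairs of neighbours that do not overlap by more than 1 base had a median of 0.23. These bases cannot be assigned to a single gene of a pair. The chemistry does not mark strand, so RNA of mt-Nd6 cannot be told from RNA of the opposite strand at the same place. This holds for every value given for mt-Nd6.

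Nuclear copies of mitochondrial genes and processed pseudogenes were looked for by alignment, and 25 members matched another gene over at least 100 bases at 95% identity or more. mt-Nd4l and the nuclear sequence Gm10222, identical over 294 bases, had the same deposited value within 0.1% in all 152 cells that detected either. The value of mt-Nd4l is therefore not separate from that of its copy. The nuclear copies of mt-Co1 and mt-Co2 held little of the signal where both were detected: 2.55 for Gm13340 against 9133 for mt-Co1 in 167 cells, and 3.97 for Gm13341 against 10528 for mt-Co2 in 151 cells (median linear values). Ndufb4 and Ndufb4c, identical over 390 bases, had medians of 56.7 and 110.9 in the 52 cells with both and a mean rho of 0.85. Neither is therefore given with a test result of its own, but both stay in the counts of members. Atp5g1 (302.5) and Gm10039 (50.1) were also linked, with 99.8% identity and a rho of 0.78.

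Members of a genome varied together over cells. Each gene was correlated with the mean of the other members of its genome within each run. The median Spearman rho over the 13 mitochondrial members was 0.41 ± 0.06 (mean ± SD over 4 runs), while the other tested genes had a median of 0.01 and a 95th percentile of 0.27 with the same mean. Over the 76 nuclear members the median was 0.25 ± 0.04, while the other genes had a median of 0.06 and a 95th percentile of 0.33. The correlation was positive in all 4 runs for 13 of 13 mitochondrial members, against 8.56% of other genes, and for 61 of 76 nuclear members, against 18.4% of other genes. The other genes were not matched to the members for level or detection. The mitochondrial values include the overlapping gene pairs given above, and they were not taken without them. Cells of a run share library preparation, fixed total and the number of genes detected, and the nuclear mean itself had a rho of 0.47 ± 0.15 with genes detected. After genes detected were regressed out, the mitochondrial median was 0.40 and the nuclear median 0.20, and without the 3 cells of high mitochondrial share they were 0.37 and 0.22.

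The mitochondrial genes closest to their group were mt-Atp6 (0.50), mt-Co1 (0.50) and mt-Nd1 (0.50), and the furthest was mt-Nd3 (0.20), the gene that also varied most between runs. Among nuclear genes the closest was Cox5b (0.46; 0.54, 0.29, 0.33 and 0.68 in Mar1, Mar17, Apr13 and Apr21), a subunit on the matrix side of complex IV. It was followed by Atp5k (0.40) and Atp5mpl (0.40), small membrane subunits of ATP synthase. In the other complexes the closest were Ndufb6 (0.38) and Ndufc2 (0.35) for I, Sdhb (0.29), the iron-sulfur subunit, for II, and Uqcr10 (0.32) and Uqcrb (0.30) for III. At the other end Atp5g2 (-0.08) was the only nuclear member with a negative mean, and Ndufs7 (0.02), Ndufa12 (0.03), Ndufs1 (0.07) and Uqcrfs1 (0.10), the Rieske protein, were near 0. Atp5g2 and Ndufa12 were detected in only 14.6% and 29.8% of cells, and the part of detection in their rho was not tested. Cox7a2l (0.15) and Cox4i1 (0.22) were lowest in complex IV.

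Pairs of single nuclear genes were weakly related, and pairs within a complex had about the same median as pairs across complexes. The median rho was 0.08 over the 875 nuclear pairs of the same complex and 0.08 over the 1975 pairs of different complexes. Within complexes it was 0.13 for IV, 0.10 for III, 0.09 for V, 0.07 for I and -0.02 for the 6 pairs of II. Lists chosen beside the respiratory chain gave 0.13 for proliferation genes, 0.06 for glycolysis, 0.05 for the TCA cycle, 0.04 for mitochondrial ribosomal proteins (taken by symbol, pseudogenes included) and 0.03 for assembly factors of the respiratory complexes.

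Mitochondrial and nuclear members showed no relation of constant sign. The 988 pairs with a gene from each genome had a median rho of -0.06, and -0.04 where both belonged to the same complex. The 2 genome means had a rho of -0.29 in Mar1, 0.22 in Mar17, -0.16 in Apr13 and -0.02 in Apr21, with cells of a run sharing depth and library preparation. Without the 3 cells of high mitochondrial share the Mar1 value was 0.04. Outside the set, the genes closest to the nuclear mean were Pfn1 (0.46), an actin-binding protein, Gapdh (0.45) of glycolysis, Rbm3 (0.41), Actg1 (0.41) and Ran (0.41), and the ADP/ATP carriers Slc25a5 (0.40) and Slc25a4 (0.39) were among the first 15. Closest to the mitochondrial mean were the 2 copies described above, Gm10222 (0.60) and Gm13340 (0.46), and the next gene reached 0.33.

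**Figure D3:**
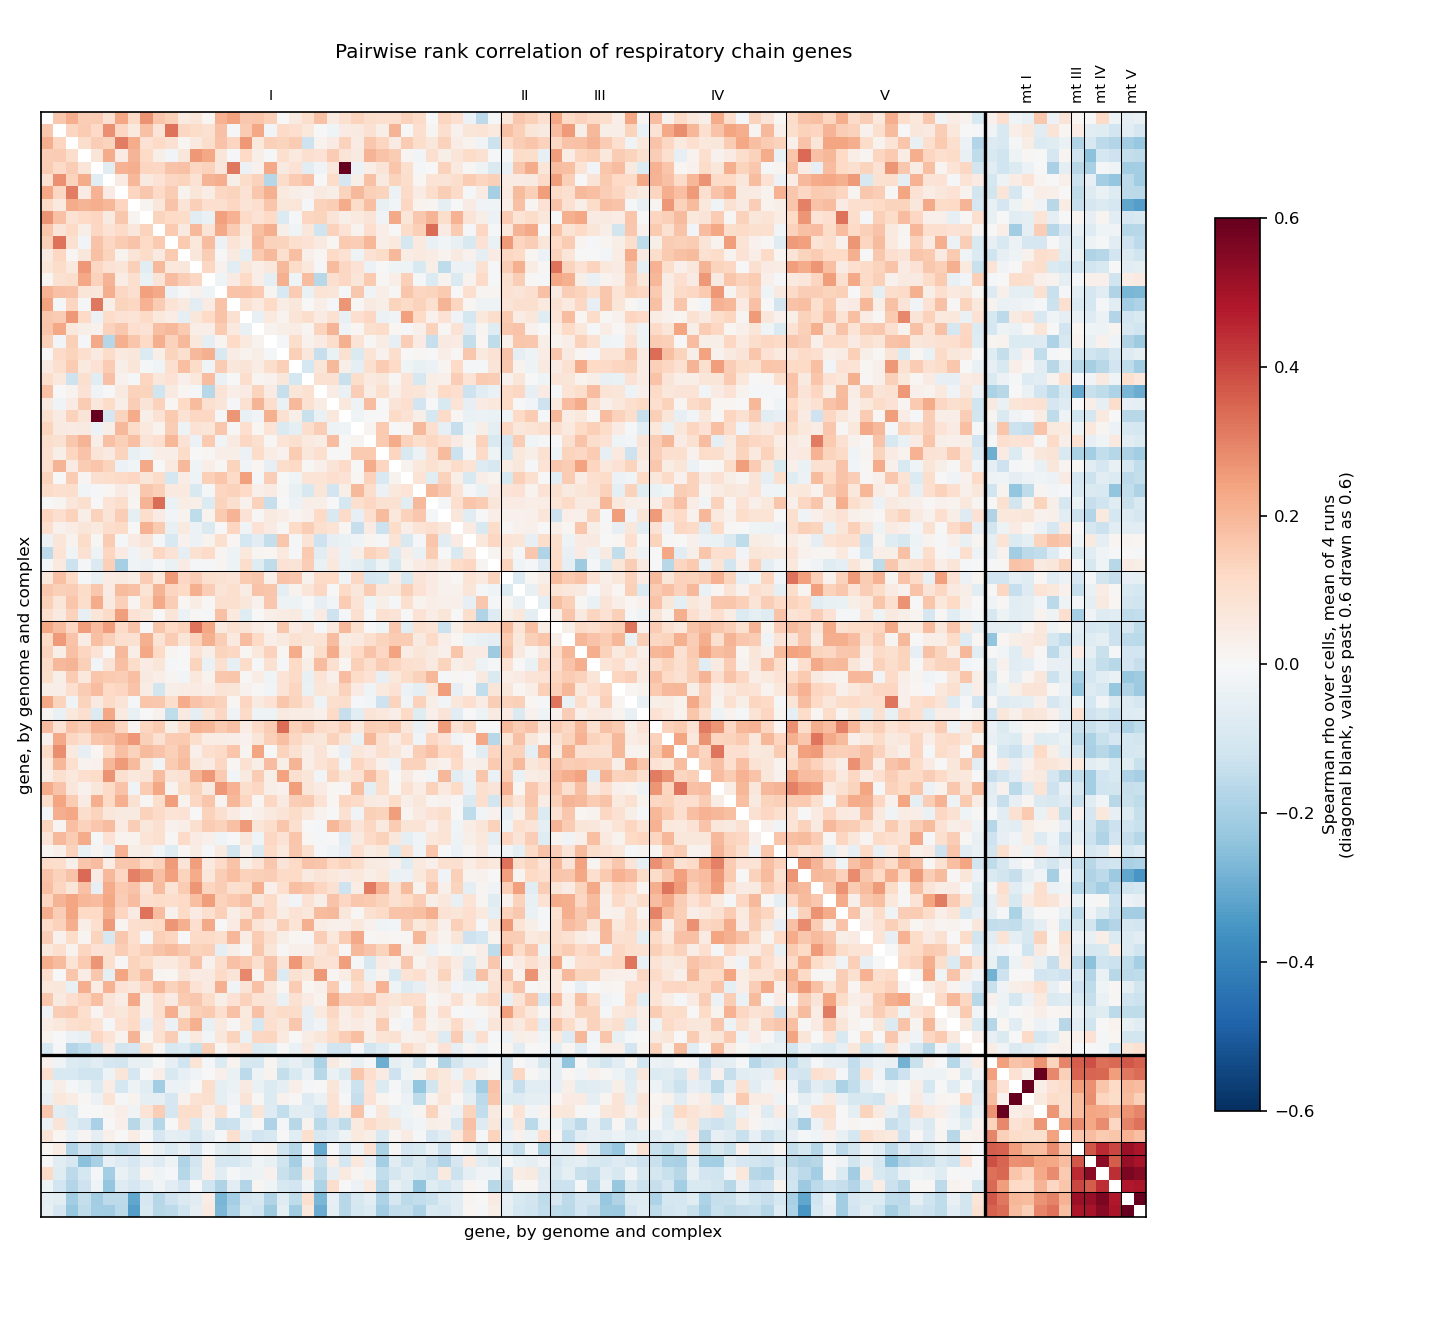
Spearman rho over cells for every pair of the 89 tested members, as the mean over 4 runs, with red for positive and blue for negative values, ordered by genome and complex. The mitochondrial block at the lower right is darkest (median 0.27), nuclear pairs are pale red (median 0.08) whether or not they share a complex, and pairs across genomes are mostly pale blue (median -0.06).

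No respiratory chain gene passed the test between Klf2-positive and Klf2-negative cells. Klf2-positive cells, those with any Klf2 value above 0, numbered 43 in March and 46 in April, against 39 and 50 Klf2-negative cells. In limma on class means per capture, with Benjamini-Hochberg adjustment over 10795 genes, 0 of 89 members passed an adjusted p of 0.05 in either direction. Over all genes tested 0.00926% were called higher (Klf2 itself, which defines the classes) and 0.0% lower. At an unadjusted p under 0.05 there were 3 members, all lower, or 3.37%, against 6.48% of all genes. Of the 89, 29 (32.6%) had a positive and 60 a negative difference, against 45.4% positive over all genes tested. The median difference of mean log2 values was -0.05 over mitochondrial members (-0.22 in March, -0.03 in April) and -0.20 over nuclear members (-0.11 and -0.29), against -0.03 over all genes tested.

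The members with the smallest p can be given as values only. Ndufb9, an accessory subunit of complex I, averaged 1.78 (March) and 2.69 (April) on the log2 scale in Klf2-positive cells, against 3.42 and 4.35 in Klf2-negative cells. The difference was -1.65 ± 0.44 (SE), with -1.63 in March and -1.66 in April, and an adjusted p of 0.594 in limma. The capture values of the classes did not overlap, but the difference did not pass. Ndufa5 stood at -1.42 ± 0.50 (-0.45 and -2.39) and Uqcr11 at -1.16 ± 0.49 (-0.44 and -1.88), both further from 0 in April than in March. In the other direction Atp5g1, which has a near-identical copy, was at 0.68 ± 0.48 and Uqcrc1, a core protein of complex III, at 0.65 ± 0.47, positive in both captures. mt-Nd4l was at 0.76 ± 0.50, with 1.79 in March and -0.28 in April, and mt-Nd1 at -0.39 ± 0.23, with -0.85 in March and 0.06 in April. Without the 3 cells of high mitochondrial share they were at 0.90 and -0.29, and Ndufb9 at -1.72.

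The 2 medians were not stable to the cells included. Without the 3 cells of high mitochondrial share the mitochondrial median was 0.10 and the nuclear one -0.34, and without run Mar17 the nuclear median was 0.08 and the mitochondrial -0.31. The Spearman rho of the nuclear mean with Klf2 was 0.03 in Mar1, -0.13 in Mar17, -0.13 in Apr13 and -0.12 in Apr21, and without the 3 cells it was -0.22 in Mar1. For the mitochondrial mean it was -0.06, 0.03, 0.04 and -0.05, and without the 3 cells 0.15 in Mar1. Of the lists around the respiratory chain, the median difference was -0.16 for assembly factors, -0.08 for the TCA cycle, -0.14 for glycolysis and -0.02 for mitochondrial ribosomal proteins. Of the assembly factors 30 of 36 were negative, against 5893 of 10794 of all genes tested. In limma 0 genes of these lists passed, with 3 of 36, 1 of 16, 1 of 15 and 7 of 76 at an unadjusted p under 0.05, against 6.48% of all genes.

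Most nuclear members had higher values in cells with Stmn1, but none passed the test between the classes fixed for it. The Stmn1-high class was set as above the median of the capture, and since that median was 0 in both captures it holds the cells with any Stmn1 value: 19 in March and 33 in April, against 63 Stmn1-low cells in each. In limma, with Benjamini-Hochberg adjustment over 10795 genes, 0 of 89 members passed an adjusted p of 0.05. Over all genes 0.00926% were called higher (Stmn1 itself) and 0.0% lower. At an unadjusted p under 0.05 there were 31 members, 30 higher and 1 lower, or 34.8%, against 9.21% of all genes. That count was 2 with linear values averaged, 8 without run Mar17 and 17 without Apr21. It was 16 with the 4 runs as blocks, 14 with classes matched on genes detected and 13 after quantile normalization. The share over all genes at an unadjusted p was not taken in those fits. Ndufb4 and Ndufb4c, copies of each other, both count among the 30 higher members. The median difference was 0.11 over mitochondrial members (0.13 in March, 0.22 in April) and 0.92 over nuclear members (1.04 and 0.61), against 0.11 over all genes tested. A positive difference was found for 9 of 13 mitochondrial and 70 of 76 nuclear members, against 65.2% of all genes. With linear values averaged 53 of the 89 members were positive, and the share over all genes was not taken in that fit.

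Stmn1-high cells also had more genes detected, with a median of 5539 in March and 5029 in April, against 5158 and 4912 in Stmn1-low cells. With cells of the classes matched on genes detected, the nuclear median was 0.50 and the mitochondrial -0.03. The median differences by complex were 0.94 for I, 0.61 for II, 1.21 for III, 1.06 for IV and 0.70 for V. Outside the set, the medians were 0.88 over 19 proliferation genes, 0.73 over 15 glycolysis genes, 0.65 over 15 carriers and coupling factors, 0.51 over 16 TCA cycle genes, 0.47 over 76 mitochondrial ribosomal proteins and 0.14 over 36 assembly factors. Marker sums of other cell types moved with the class too. The CD8 markers averaged 30.2 in March and 53.5 in April in Stmn1-high cells, against 19.1 and 7.76 in Stmn1-low cells. The NK marker averaged 71.6 and 0, against 2.73 and 0.930, and the plasma cell marker 13.99 and 64.0, against 0.745 and 44.2. Their part in the differences was not tested.

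Of single members, Ndufs6, an accessory subunit of complex I, had the smallest p. Its mean log2 value was 4.26 in March and 4.94 in April in Stmn1-high cells, against 1.66 and 3.27 in Stmn1-low cells, a difference of 2.14 ± 0.53 (SE, adjusted p 0.168 in limma). The high class lay above the low class in both captures without passing the threshold. Ndufb8 stood at 2.13 ± 0.55 and Atp5mpl at 2.22 ± 0.60, followed by Ndufb5 (1.79 ± 0.54), Ndufc2 (1.55 ± 0.51) and Atp5d (1.65 ± 0.55), the delta subunit of ATP synthase. In the other direction Ndufs7, a core subunit of complex I with an iron-sulfur cluster, had 3.54 and 3.30 in Stmn1-high cells, against 4.24 and 5.05 in Stmn1-low cells (-1.23 ± 0.55). mt-Atp8 (-0.12 ± 0.25), mt-Nd6 (-0.21 ± 0.47), Ndufa3 (-0.19 ± 0.51), Ndufb10 (-0.30 ± 0.53) and Cox7c (-0.12 ± 0.56) differed by less than their standard errors.

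**Figure D4:**
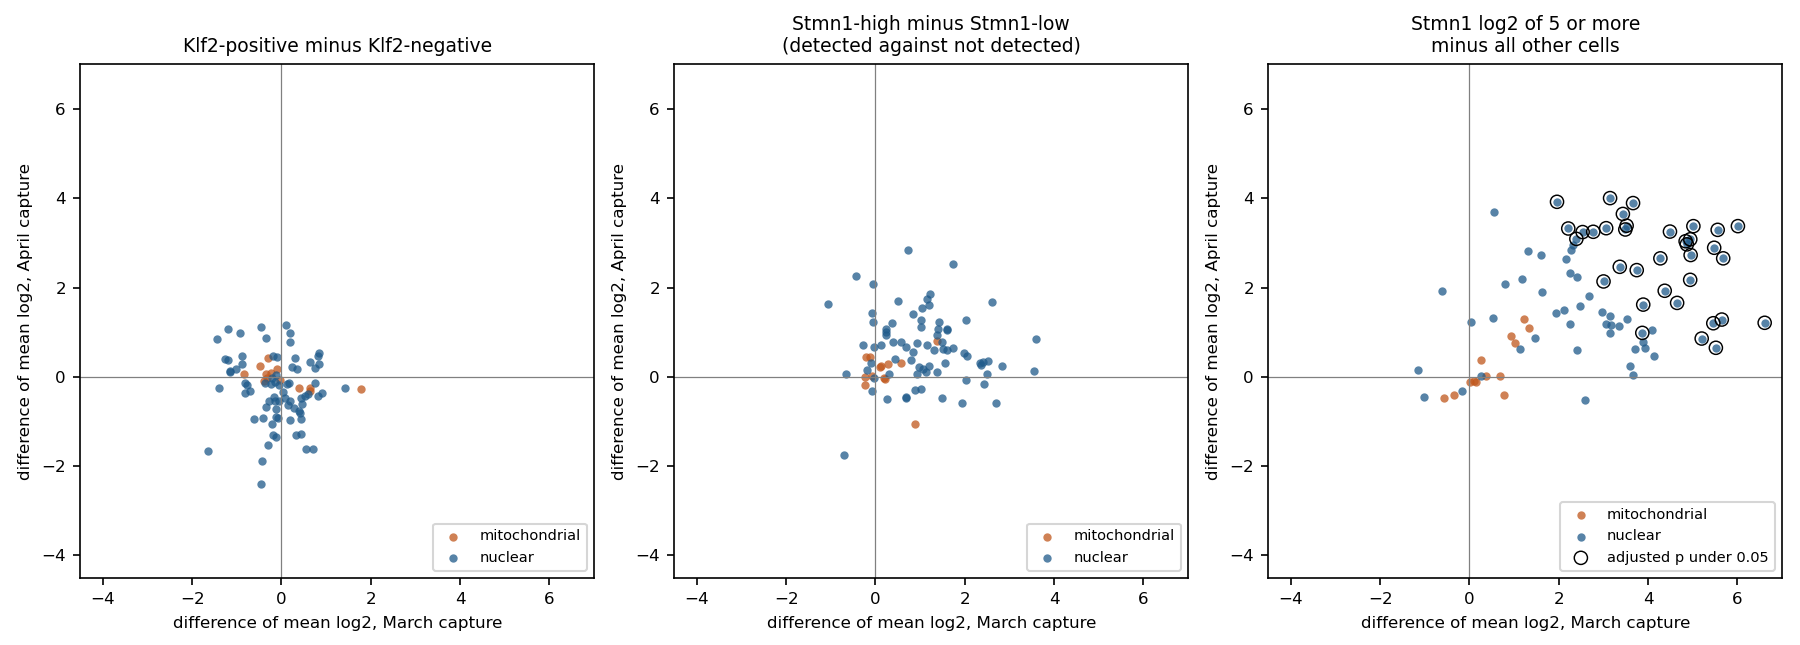
Difference of mean log2 value in the March capture (horizontal) and the April capture (vertical) for each of 89 members, for Klf2 classes (left), Stmn1 detected or not (middle) and Stmn1 at a log2 value of 5 or more (right). Circles mark the 35 members past an adjusted p of 0.05 in limma, which all lie in the right panel and are all nuclear.

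A class of cells with a Stmn1 log2 value of at least 5 was added after seeing the data. It held 17 cells, 5 in March, all from run Mar17, and 12 in April, 8 from Apr13 and 4 from Apr21, against 77 and 84 other cells. The mean log2 value over nuclear members was 4.99, 6.37 and 7.41 (lowest, median and highest) in the high cells of Mar17, 2.90, 5.66 and 6.41 in those of Apr13 and 4.82, 6.82 and 7.66 in those of Apr21. In the other cells of the same runs it was 1.38, 3.37 and 6.25, then 1.70, 3.67 and 6.17, and 1.51, 3.55 and 5.31. Of the 17 cells, 15 lay above the median of the others, and the ranges overlapped in each run. The nuclear share of the signal had a median of 2.97% in the 17 cells and 2.16% in the others, and the mitochondrial share 7.06% and 8.21%. Klf2 was detected in 1 of 5 high cells of Mar17, against 29 of 52 others, in 4 of 8 of Apr13, against 17 of 40, and in 1 of 4 of Apr21, against 24 of 44, so the direction was not the same in every run. The CD8 marker sum averaged 62.1 in March and 3.10 in April in high cells, against 19.0 and 26.4 in the others, and the plasma cell marker 36.2 and 2.12, against 1.71 and 58.0. Proliferation genes other than Stmn1 summed to 7667 and 9813 in high cells, against 2265 and 2385 in the others. The part of these cell types in the calls was not tested.

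**Figure D5:**
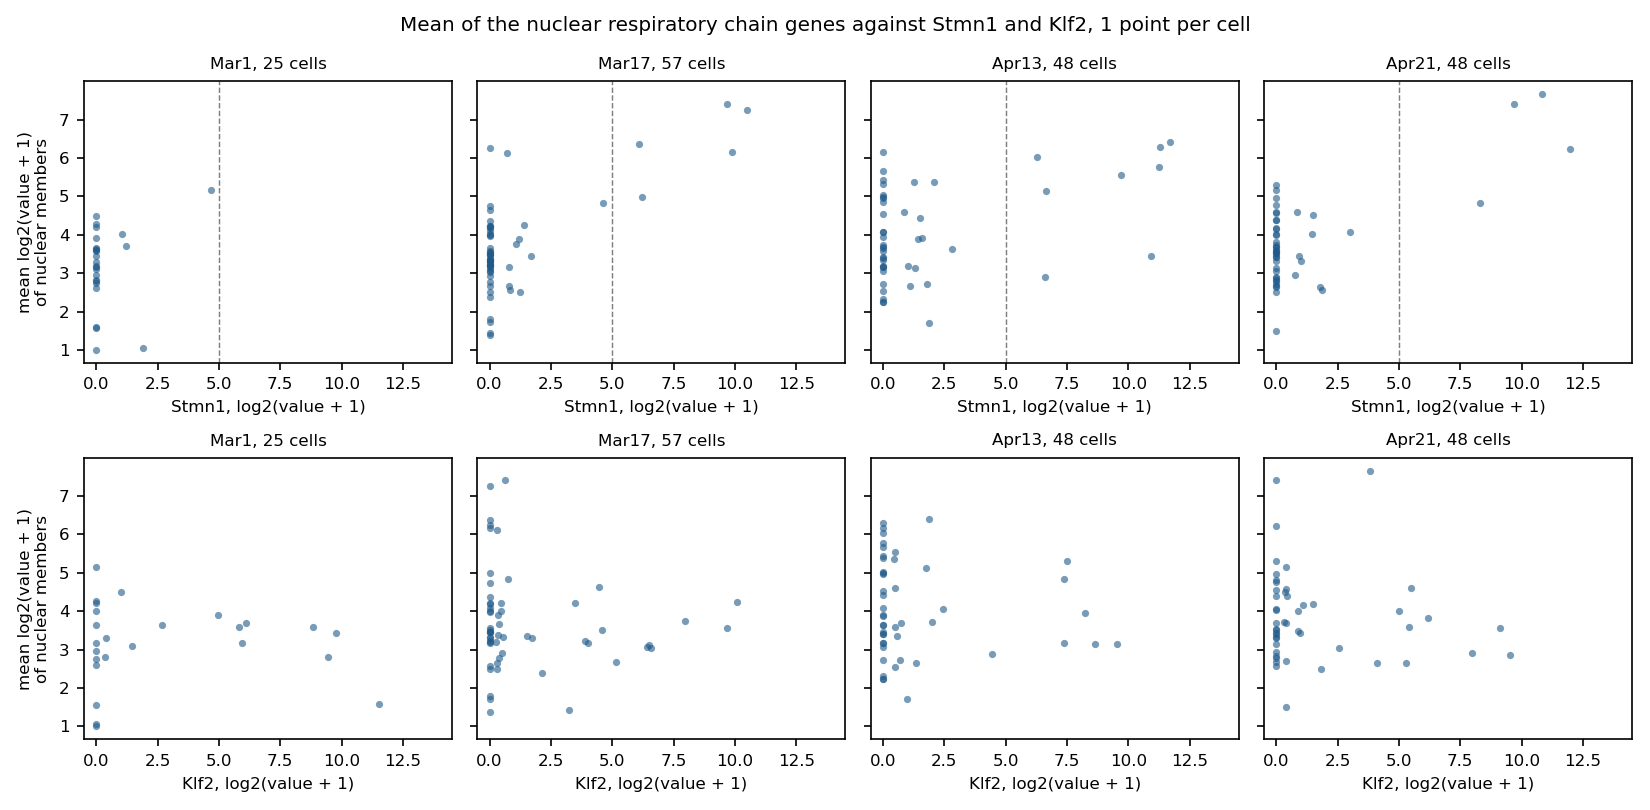
Mean log2(linear value + 1) of the nuclear members in each cell against Stmn1 (top) and Klf2 (bottom) by run, with a dashed line at a Stmn1 log2 value of 5. Of the 17 cells right of the line, 15 lie above the median of the others, and the rho of the mean with Klf2 lies between -0.13 and 0.03 in the 4 runs.

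Between these classes 35 of 89 members were higher past an adjusted p of 0.05 in limma, and 0 were lower, against 3.75% of all genes called higher and 0.0% called lower. All 35 were nuclear: 0 of 13 mitochondrial members were called, and of the nuclear members 10 of 37 in complex I, 0 of 4 in II, 5 of 8 in III, 9 of 11 in IV and 11 of 16 in V. The median difference was 0.19 over mitochondrial and 2.42 over nuclear members (3.15 in March, 1.91 in April), against 0.28 over all genes. In the same fit 14 of 19 proliferation genes, 5 of 15 glycolysis genes, 5 of 15 carriers, 10 of 76 mitochondrial ribosomal proteins and 0 of 36 assembly factors were called.

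Atp5mpl rose most, with log2 means of 9.50 (March) and 7.21 (April) in high cells, against 3.49 and 3.84 in the others (4.69 ± 0.84, adjusted p 3.3e-05 in limma). All 35 were positive in both captures, with differences of 1.96 to 6.61 in March and 0.65 to 4.003 in April. The standard errors come from limma, which pools the spread over genes, and they do not show the gap between captures for a single gene. The adjusted p does not show that gap either: Ndufv3, with 5.52 in March and 0.65 in April, was called. In complex III Uqcrq rose by 4.43 ± 0.87 and Uqcr10 by 4.17 ± 0.86. In complex I Ndufs6 rose by 4.19 ± 0.88, Ndufb8 by 3.94 ± 0.86 and Ndufc2 by 3.91 ± 0.88 (6.61 in March but 1.21 in April), and Ndufa4 rose by 4.20 ± 0.81. In complex IV Cox7a2 (4.01 ± 0.87), Cox7b (3.87 ± 0.82) and Cox6b1 (3.78 ± 0.81) led, and Cox4i1, at 2.29 ± 0.74, was not called (adjusted p 0.052 in limma). In complex V Atp5a1, the alpha subunit of the head of ATP synthase, rose by 3.58 ± 0.82, while Atp5b, its catalytic beta subunit, at 2.13 ± 0.77, was not called. Among the rest, Ndufs7 stood at -0.74 ± 0.88, Uqcrfs1 at -0.50 ± 0.73 and Atp5g2 at -0.24 ± 0.16, the 3 nuclear members with a negative difference.

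Among mitochondrial members the values in that contrast were smaller, with mt-Co3 at -0.00 ± 0.30, mt-Co1 at 0.01 ± 0.36, mt-Cytb at -0.06 ± 0.40 and mt-Atp8 at -0.53 ± 0.40. mt-Nd5 (1.26 ± 0.70) and mt-Nd4l (1.21 ± 0.78) had the largest positive values, and none was called. The 17 cells had more genes detected, with medians of 6526 in March and 5673.5 in April, against 5294 and 4918 in the others. Matched on genes detected in 12 pairs (medians 5673.5 and 5670.5), 0 of 89 members and 0 genes in all were called. An unadjusted p under 0.05 was found for 9 members, and the nuclear median difference was 1.76 with 72 of 89 members positive. The same counts over all genes were not taken in the matched fit. Pairs were matched within 100 genes detected. The 5 high cells of March had 6148 to 6990 genes detected (median 6526), and no other cell had more than 6232. Most high cells of March therefore had no match, and the March high class of the matched fit rests on the few that did. Without matching, 82 of 89 members and 7403 of 10794 genes were positive. The 35 calls were 17 without Mar1, 26 without Apr13 and 14 without Apr21, and 0 without the capture as a block. Of all genes 1.16%, 1.76%, 1.07% and 0.0% were called in those fits, against 3.75% in the first fit. With Mar17 left out no March cell remained in the high class, so the calls could not be made without it. With the highest 25% of Stmn1 values in each capture as the high class, 4 of 89 members were called higher, against 0.713% of all genes.

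By run, the Spearman rho of the nuclear mean with Stmn1 was 0.22 in Mar1, 0.37 in Mar17, 0.26 in Apr13 and 0.25 in Apr21, positive in all 4, and 0.46 in Mar1 without the 3 cells of high mitochondrial share. In Mar1 only 4 cells had any Stmn1, against 21 without, and 1 of the 3 cells left out was among the 4. The Mar1 values therefore rest on very few cells with Stmn1. With genes detected regressed out the rho of the nuclear mean with Stmn1 was 0.07, 0.28, 0.16 and 0.17. For the mitochondrial mean it was 0.27, 0.09, 0.12 and 0.03, and with genes detected regressed out the sign differed between runs (0.30, -0.03, 0.11 and -0.04).

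Promoter letters were compared because many nuclear members were higher together in cells of high Stmn1. Windows from 250 bases before to 50 after the start were found for 62 of the 81 nuclear members (67 windows, RefSeq, GRCm38.p6), and both strands were searched. The palindromic NRF1 motif stood in 5 of the 67 member windows (7.46%), against 2.21% of the 9808 windows of tested genes and 0.971% of all windows of the table. The NRF1 motif with 1 free base stood in 18 member windows (26.9%), against 10.6% and 4.60%. AAGATGGCG, the YY1 motif, stood in 7 member windows (10.4%), against 3.28% and 1.40%. CCGGAAGT, the ETS motif bound by GABP, stood in 5 (7.46%), against 8.53% and 3.89%, and CCAAT in 27 (40.3%), against 37.7% and 37.4%. The windows were not matched for base composition, and no difference between them was tested. A match describes the letters and not a bound site.

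The 4 promoters below show these letters in Atp5j2 and in 3 genes named above, with capitals for the NRF1 motif with 1 free base, on either strand, and for AAGATGGCG. Cox6a1, the most abundant nuclear member (chr5:115348909-115349208, minus strand), has 2 NRF1 matches. Atp5k (chr5:108434350-108434649, minus strand) has 1. Ndufs6 (chr13:73328433-73328732, minus strand) has an NRF1 match before and a YY1 match after its start. Atp5j2, subunit f of ATP synthase (chr5:145191492-145191791, minus strand), has a YY1 match after its start.
Cox6a1: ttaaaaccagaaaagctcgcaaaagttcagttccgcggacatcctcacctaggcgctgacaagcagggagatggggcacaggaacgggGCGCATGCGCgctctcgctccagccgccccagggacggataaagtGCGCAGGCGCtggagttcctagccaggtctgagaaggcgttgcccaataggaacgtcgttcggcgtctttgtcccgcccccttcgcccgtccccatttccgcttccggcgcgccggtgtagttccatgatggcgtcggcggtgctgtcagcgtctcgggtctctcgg
Atp5k: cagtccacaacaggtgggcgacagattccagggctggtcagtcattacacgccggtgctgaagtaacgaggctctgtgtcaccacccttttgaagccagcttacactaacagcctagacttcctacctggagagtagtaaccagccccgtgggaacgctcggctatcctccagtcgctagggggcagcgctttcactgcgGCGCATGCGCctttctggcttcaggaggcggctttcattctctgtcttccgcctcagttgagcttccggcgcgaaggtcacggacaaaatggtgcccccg
Ndufs6: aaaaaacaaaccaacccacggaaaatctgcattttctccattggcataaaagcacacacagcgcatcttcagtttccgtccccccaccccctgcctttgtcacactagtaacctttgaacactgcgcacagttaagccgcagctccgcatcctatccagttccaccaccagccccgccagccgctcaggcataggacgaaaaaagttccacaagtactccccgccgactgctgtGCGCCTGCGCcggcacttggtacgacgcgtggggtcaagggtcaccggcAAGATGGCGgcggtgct
Atp5j2: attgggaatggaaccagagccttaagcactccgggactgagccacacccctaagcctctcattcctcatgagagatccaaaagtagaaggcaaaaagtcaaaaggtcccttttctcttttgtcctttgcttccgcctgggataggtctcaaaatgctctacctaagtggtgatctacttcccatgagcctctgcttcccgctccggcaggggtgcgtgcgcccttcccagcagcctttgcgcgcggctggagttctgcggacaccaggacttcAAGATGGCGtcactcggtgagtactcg

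Members with low rho held the same letters. Atp5g2, with the lowest rho of all nuclear members (-0.08), has the palindromic NRF1 motif in its window, and Ndufs7 (0.02) has AAGATGGCG.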

How the data were processed

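Single-cell libraries had been made with SMART-Seq v4 chemistry on the Fluidigm C1, per the labels' protocols. This chemistry adds no molecular identifiers and does not mark strand. The authors deposited 1 table of log2 values per gene and cell, on build mm10, per the submitters' processing notes. Aligner, counter and unit: not given in the sources used here. The reading as log2 of a TPM-like value plus 1 comes from the values, of which a median of 95.1% within a cell was shared by no other gene. Depth in reads is unknown. Of the Ensembl IDs, 12163 were matched to symbols and 269 were not. All columns were mapped, with 0 left over. A filter at 500 genes detected and 5% of the median total left out 0 cells, and no doublet caller was run.

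The labels do not give the number of mice per pool, and the spread between the 2 captures may be technical. Since 4 class means leave 1 residual degree of freedom, limma's moderated p-values rest largely on the spread between captures pooled over genes. In the Klf2 fit and the planned Stmn1 fit the spread of the gene itself had a small part. In the fit at a Stmn1 log2 value of at least 5 it had almost none. Mean log2 values per capture and class (4 class means) were tested two-sided with limma 3.58.1 in R 4.3.3, with a mean-variance trend, the capture as a replicate block because both classes come from the same capture, and Benjamini-Hochberg adjustment over the 10795 genes detected in at least 10% of cells. Correlations are Spearman's within a run, averaged over 4 runs, with no p. Shares are percent of the linear signal. Python 3.11.15, numpy 2.4.6, pandas 2.3.3, SciPy 1.17.1 and matplotlib 3.10.9 were used.

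Members and lists were chosen with earlier results of these data known. Genes were named by a rule: all mitochondrial members, the highest and lowest level and rho in each complex, those called or with the smallest p in a comparison, and tissue isoforms. The core subunits of complex I that are named, the c-ring genes, the genes that varied most between runs, genes with copies and the promoters shown were chosen after their values were seen.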

Additional observations from a re-analysis of the deposited data

How the results depend on the processing

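Between Klf2 classes 0 members were called under each of 15 alternatives, and the smallest adjusted p of a member in limma was 0.297, without the cells of run Mar1. The median difference of nuclear members (-0.20) was -0.046 with linear values averaged, -0.34 without the 3 cells over 50% mitochondrial and 0.083 without run Mar17, and that of mitochondrial members (-0.05) was -0.23, 0.10 and -0.31. With either capture left out, the nuclear median lay between -0.29 and -0.11 and the mitochondrial between -0.22 and -0.029. Single members changed sign as follows. With the class set at a linear value of 1, Ndufb11 was at -0.60 and Uqcr11 at 0.13. Without Mar17, Atp5g1 was at -0.24. With the March capture left out, mt-Nd4l was at -0.28, Ndufa9 at -0.25 and mt-Nd1 at 0.057, and with the April capture left out at 1.79, 1.43 and -0.85.

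Between Stmn1 classes the nuclear median (0.92) was 0.53 with a pseudocount of 10, 0.18 with linear values averaged, 0.43 after quantile normalization, 0.35 without Mar17 and 0.50 with classes matched on genes detected. The mitochondrial median (0.11) was 0.28 with the class at a linear value of 1, -0.060 with linear values averaged, 0.18 with 4 runs as blocks, -0.00 after quantile normalization, 0.47 without Mar17 and -0.033 when matched. With either capture left out, the nuclear median lay between 0.61 and 1.04 and the mitochondrial between 0.13 and 0.22. The highest 25% of Stmn1 values gave 4 members called higher, against 0.713% of all genes.

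The class at a log2 value of 5 was chosen after seeing the data. It gave 35 calls and medians of 2.42 and 0.19 for nuclear and mitochondrial members. It gave 17 calls with medians of 2.42 and 0.29 without Mar1, 26 with 3.15 and 0.21 without Apr13, and 14 with 2.34 and 0.20 without Apr21. Of all genes 1.16%, 1.76% and 1.07% were called in those 3 fits, against 3.75% with all runs. Matched on genes detected the medians were 1.76 and 0.20, with 0 calls in limma among members and among all genes, and 9 members at an unadjusted p under 0.05. In that matched fit most high cells of March had no match and were left out. Without run Mar17 this class could not be fitted. With no replicate block its medians were 2.42 and 0.19 and 0 members were called, 55 at an unadjusted p under 0.05, so its calls depend on the pairing of classes by capture. Of all genes 0.0% were called with no block, and unadjusted counts over all genes were not taken in these fits. In the other fits with no replicate block 0 members were called for Klf2 and for Stmn1, as with it, and the smallest adjusted p of a member in limma was 0.999 and 0.727.

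Members that changed sign between Stmn1 classes were mostly those within their standard errors. With the class at a linear value of 1, Ndufb10 was at 0.36 and Cox7c at 0.62. In the highest 25% Ndufa3 was at 0.26 and Cox7c at 0.059. At a log2 value of 5 Ndufb10 was at 1.85, mt-Nd6 at 0.92, Ndufa3 at 1.44 and Cox7c at 2.92. Cox7c was at 0.049 with a pseudocount of 10 and lay between -0.50 without the March capture and 0.26 without the April capture, and Ndufb10 between 0.064 and -0.67 in that order. mt-Nd6 was at 0.049 with linear values averaged and at 0.041 without Apr13, where Ndufa3 was at 0.26. Ndufa3 was at 0.086 when matched. mt-Atp8 was at 0.087 with 4 runs as blocks and at 0.47 without Mar17, where Ndufs7 was at 0.10. The cause was not tested for any of these. Of the values under alternatives of the members singled out in the Klf2 classes and the planned Stmn1 classes, 413 kept direction with no call, 24 changed sign and 9 passed the threshold that they had missed. All 9 that passed did so with the Stmn1 class set at the highest 25% or at a log2 value of 5, and none in the Klf2 classes. None of these members was called in the main fits. Values with a capture left out had no test, and only their direction was compared.

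The mitochondrial share in March had a mean over cells of 11.01%, against a median of 7.30%. The median rho of nuclear members (0.25) was 0.20 with genes detected regressed out and 0.30 as Pearson's r. The relation of the nuclear mean to Stmn1 (0.27) was 0.17 and 0.52 under the same alternatives, and that of the mitochondrial mean to Klf2 (-0.01) was 0.043 without the 3 cells and -0.084 as Pearson's r. The number of captures, 2, limits every test, and the number of reads behind a value is unknown.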
